A study of Homo sapiens with 8 samples.

Results

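The genes described here are 10 genes of integrin subunits made by epithelial cells, of 78932 gene identifiers in each count table. They were chosen by name, from a list of 5 alpha subunits (ITGA2, ITGA3, ITGA5, ITGA6 and ITGAV) and 5 beta subunits (ITGB1, ITGB4, ITGB5, ITGB6 and ITGB8), and all 10 were found by Ensembl identifier. RNA came from dTAG-NUDT21 HCT116 cells, a human colorectal carcinoma line in which NUDT21 carries a tag for degradation on demand. One group of 4 libraries came from cells given DMSO with JTE-607 and the other 4 from cells given dTAGV1 with JTE-607. The NUDT21 protein is the part of the cleavage factor CFIm that recognises UGUA in nascent RNA, and CFIm steers the choice of polyadenylation site. dTAGV1 is a degrader of tagged proteins, and JTE-607 inhibits CPSF3, the endonuclease that cuts RNA before poly(A) is added. Every library had JTE-607, so all differences below are differences made in its presence, in 1 cell line. The doses, the duration, and whether the line is 1 clone are not given in the sources used here.

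Integrins are receptors made of 1 alpha and 1 beta subunit that span the plasma membrane and tie the extracellular matrix to the cytoskeleton. ITGB1 is the common partner of many alpha subunits: with ITGA2 it binds collagen, with ITGA3 or ITGA6 laminin, and with ITGA5 fibronectin. ITGB4 pairs with ITGA6 alone and anchors epithelial cells to laminin through hemidesmosomes. ITGAV pairs with ITGB1, ITGB5, ITGB6 or ITGB8, whose ligands include vitronectin and the latent form of TGF-beta. Colon epithelium uses these receptors to hold to its basement membrane, and a subunit reaches the surface only in a pair.

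The libraries hold reads from the 3′ ends of polyadenylated RNA, so the ends of the integrin transcripts are where these counts should mostly arise. Some counts of ITGA6 lay further inside the gene, as given at the end. The windows below are 30 bases of transcript sequence, in DNA letters, near the annotated ends of 5 of the integrin genes that changed (GENCODE 29, GRCh38). They are shown because both the treatment and the assay act at this place. Capitals mark the poly(A) signal (AATAAA or ATTAAA) and any TGTA, the DNA form of the CFIm motif, inside the window.
ITGB1, chr10:32900323-32900352, minus strand: aaatttttatagATTAAAgaagttgaggaa
ITGB5, chr3:124761953-124761982, minus strand: tgaattgagaaaAATAAATGTAattttgga
ITGA3, chr17:50090448-50090477, plus strand: ctcacggcgaccAATAAAcagctcccagtt
ITGA2, chr5:53094734-53094763, plus strand: aattgttttgaaAATAAAgccattttcttt
ITGB4, chr17:75757784-75757813, plus strand: tgttctgcacttAATAAAtggttttgctac
The sixth gene that changed, ITGA6, has neither signal in the last 100 bases of its annotated transcript, so no window is shown for it. In the last 100 transcript bases, on the strand of the gene, TGTA was found in 9 of the 10 integrin genes (not in ITGA5). The same search found it in 55.1% of 10637 tested genes with a protein-coding transcript end. AATAAA was found in 8 of 10 against 66.2%, and either signal in 9 of 10 against 81.0%. The sets are not alike, since the 10 include ITGB6 and ITGB8, which were not tested and hold both TGTA and AATAAA. These are matches of letters at 1 annotated end per gene. Which end the cells used was not measured here, and between 1 and 5 ends at least 50 bases apart are annotated for these genes.

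The RNA of NUDT21 was read first, as the targeted gene. dTAGV1 acts on the tagged protein, which was not measured here, so the RNA is no direct check of the treatment. NUDT21 counts were 104, 139, 131 and 129 in the DMSO libraries and 34, 29, 15 and 43 in the dTAGV1 libraries, a log2 fold change of -1.95 (SE 0.18, edgeR adjusted p = 1.36e-09). No dTAGV1 library reached the level of a DMSO library. Sequencing gave 8649238 to 9977205 reads per library, of which 3447842 to 4291256 were counted on the strand of a gene. Of uniquely mapped reads, those that fit no gene were 30.1% to 33.7% in the DMSO libraries and 35.9% to 37.4% in the dTAGV1 libraries, so this share moved with the groups, and its part in the results was not tested. Unmapped reads were 27.7% to 28.9% of the DMSO libraries. In dTAGV1 replicates 1 to 4 they were 30.3%, 29.9%, 24.9% and 20.4%, and the part of this spread was not tested either. The labels do not say that the 4 libraries of a group came from separate cultures, so p-values measure the spread between these libraries, which may be technical.

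Levels are given as CPM (counts per 1000000 counted reads) after TMM scaling, which adjusts each library total for differences in composition. Tests are edgeR's quasi-likelihood test over 12618 genes with enough counts, with Benjamini-Hochberg adjustment over all of them, and a gene is said to have changed where the adjusted p is under 0.05. Positive log2 fold changes mean higher with dTAGV1.

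With dTAGV1, the integrin transcripts shifted in composition: ITGB1, ITGB5, ITGA6 and ITGA3 rose, ITGA2 and ITGB4 fell, and ITGAV and ITGA5 did not pass the test. ITGB8 and ITGB6 had too few counts to be tested. Of the 8 genes tested, 6 changed, beside a background of 57.9% of all tested genes. The 4 that rose stand beside 29.4% of genes that rose, and the 2 that fell beside 28.5% that fell. With library totals in place of TMM scaling 3 integrin genes rose and 3 fell, and the share of higher genes among all that changed was 43.8% in place of 50.8%. In 5 of the 8 the libraries of the groups did not overlap, and the share among all tested genes was 50.9%. The median log2 fold change of the 8 was 0.25, with a range from -0.54 to 0.85, and that of all tested genes was 0.01. Without dTAGV1 replicate 1 the median of the integrin genes was 0.15. Their median absolute change was 0.38, beside 0.42 over all tested genes. No integrin gene passed the rule of a change above 2-fold, which 16.6% of all tested genes passed with an adjusted p under 0.05.

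**Figure D1:**
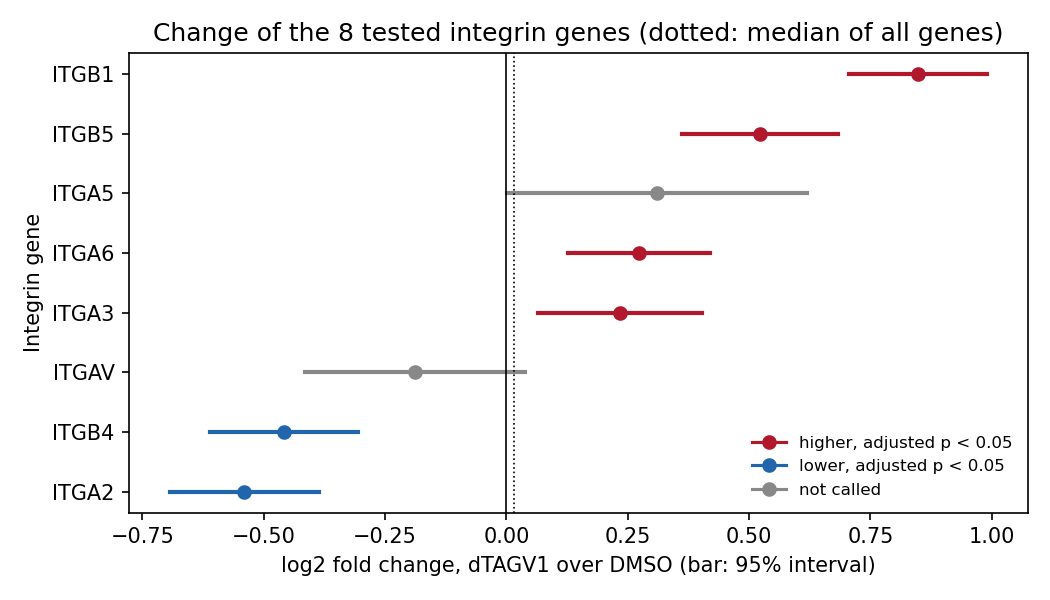
Log2 fold change of the 8 tested integrin genes, dTAGV1 over DMSO (points), with 95% intervals (bars), and the median of all tested genes as a dotted line. ITGB1 lies highest at 0.85 and ITGA2 lowest at -0.54, and ITGA5 and ITGAV (grey) did not pass the test.

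ITGB1 (ENSG00000150093, chr10:32900319-33005792, minus strand) is the beta subunit shared by most epithelial integrins. It had the largest change of the 8 tested. Its level was 258, 272.3, 261 and 273 CPM in DMSO replicates 1 to 4, and 455, 451, 501 and 509 CPM in dTAGV1 replicates 1 to 4. All dTAGV1 libraries lay well above all DMSO libraries, and the spread within each group was small beside the gap. Group means were 266 ± 7.68 CPM with DMSO and 479 ± 30.4 CPM with dTAGV1 (± is the SD of 4 libraries here and below), and on the log2 scale ITGB1 rose by 0.85 (SE 0.07, 95% interval 0.71 to 0.99, edgeR adjusted p = 1.55e-10). Among all tested genes, 21.9% had a larger absolute change. A pseudogene copy, ITGB1P1, is annotated elsewhere in the genome, and reads that fit both places equally would be missing from these counts.

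ITGB5, ITGB6 and ITGB8 are partners of ITGAV. ITGB5 (ENSG00000082781, chr3:124761948-124901418, minus strand), part of a vitronectin receptor, was the only well-counted one of the 3. Its level was 152.2, 160.4, 162.2 and 151.3 CPM in the DMSO libraries, and 193, 235.9, 228.9 and 241.5 CPM in the dTAGV1 libraries. The groups did not overlap, and dTAGV1 replicate 1 lay below the other dTAGV1 libraries. The mean went up from 157 ± 5.56 to 225 ± 21.8 CPM, and the log2 fold change was 0.52 (SE 0.08, 95% interval 0.36 to 0.68, edgeR adjusted p = 2.95e-06).

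ITGB8 (ENSG00000105855, chr7:20330702-20415754, plus strand) and ITGB6 (ENSG00000115221, chr2:160099666-160200313, minus strand) form receptors that activate latent TGF-beta. ITGB8 counts were 5, 3, 3 and 5 in the DMSO libraries and 10, 6, 8 and 10 in the dTAGV1 libraries. The dTAGV1 counts were all above the DMSO counts, but the gene stayed below the filter on low counts. In a fit without that filter, over 29925 genes, its log2 fold change was 1.15 (SE 0.50, edgeR adjusted p = 0.0791). ITGB6 had 1 count in DMSO replicate 4, 1 count in dTAGV1 replicate 1 and 0 in the other 6 libraries, so no fold is given.

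ITGB4 (ENSG00000132470, chr17:75721328-75757818, plus strand) is the hemidesmosomal beta subunit, which carries the long cytoplasmic tail that binds plectin. Its level was 343, 271, 311 and 305 CPM in the DMSO libraries and 229, 224, 222 and 219 CPM in the dTAGV1 libraries. The dTAGV1 libraries lay close together and below every DMSO library. From a mean of 308 ± 29.3 CPM the gene dropped to 224 ± 4.13 CPM, and the log2 fold change was -0.46 (SE 0.07, 95% interval -0.61 to -0.31, edgeR adjusted p = 9.36e-06). Among the beta subunits, ITGB4 was the only tested gene that fell.

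ITGA2 (ENSG00000164171, chr5:52989326-53094779, plus strand) is the alpha subunit of the collagen receptor. Its level was 284, 290.4, 277 and 286 CPM in the DMSO libraries and 187, 224, 182 and 190 CPM in the dTAGV1 libraries. The DMSO libraries were tight, and dTAGV1 replicate 2 was the highest of its group but still below them. The group means, 284 ± 5.45 and 196 ± 19.5 CPM, gave a log2 fold change of -0.54 (SE 0.07, 95% interval -0.69 to -0.39, edgeR adjusted p = 1.01e-06).

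ITGA6 and ITGA3 are laminin-binding alpha subunits, and both rose by small amounts. ITGA6 (ENSG00000091409, chr2:172427354-172506282, plus strand) had 243, 236, 238 and 222 CPM in the DMSO libraries and 302, 297, 274 and 262 CPM in the dTAGV1 libraries. The groups did not overlap, and the lowest dTAGV1 library was close above the highest DMSO library. Means of 235 ± 8.82 and 284 ± 19.1 CPM gave a log2 fold change of 0.27 (SE 0.07, 95% interval 0.13 to 0.42, edgeR adjusted p = 0.00194). Counted irrespective of strand, its log2 fold change was 0.18 (edgeR adjusted p = 0.0328). ITGA6 and its partner ITGB4 thus moved in opposite directions.

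ITGA3 (ENSG00000005884, chr17:50055968-50090481, plus strand) had 419, 315, 394 and 355 CPM in the DMSO libraries and 467, 429, 455 and 394 CPM in the dTAGV1 libraries. The groups overlapped, since dTAGV1 replicate 4 lay just below DMSO replicate 3 and below DMSO replicate 1. Means of 371 ± 45.5 and 436 ± 32.5 CPM corresponded to a log2 fold change of 0.23 (SE 0.08, 95% interval 0.07 to 0.40, edgeR adjusted p = 0.0166). The call did not hold without any 1 of 4 libraries. The log2 fold change and edgeR adjusted p were 0.16 and 0.114 without DMSO replicate 2, 0.21 and 0.0636 without DMSO replicate 4, 0.19 and 0.0609 without dTAGV1 replicate 1, and 0.20 and 0.0661 without dTAGV1 replicate 3. With library totals in place of TMM scaling they were 0.16 and 0.0942.

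ITGAV (ENSG00000138448, chr2:186590065-186680901, plus strand) and ITGA5 (ENSG00000161638, chr12:54395261-54419460, minus strand) belong to receptors for proteins with the RGD peptide, such as vitronectin and fibronectin. ITGAV had 39.9, 35.5, 40.02 and 41.8 CPM in the DMSO libraries and 33.2, 33.5, 37.4 and 33.8 CPM in the dTAGV1 libraries. These overlapped at 1 library of each group, with a log2 fold change of -0.19 (SE 0.11, 95% interval -0.42 to 0.04, edgeR adjusted p = 0.148). With library totals in place of TMM scaling the gene passed the test, at -0.26 (edgeR adjusted p = 0.0465). ITGA5 had 30.06, 27.5, 27.2 and 24.7 CPM in the DMSO libraries and 47.1, 27.2, 33.3 and 28.4 CPM in the dTAGV1 libraries. The value of dTAGV1 replicate 1 stood above all the others, and the remaining dTAGV1 libraries lay in or just above the DMSO range. The log2 fold change was 0.31 (SE 0.15, edgeR adjusted p = 0.0795). It was 0.11 without dTAGV1 replicate 1, and ITGA5 passed the test without dTAGV1 replicate 2 (0.38, edgeR adjusted p = 0.0363) or replicate 4 (0.38, edgeR adjusted p = 0.0365).

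**Figure D2:**
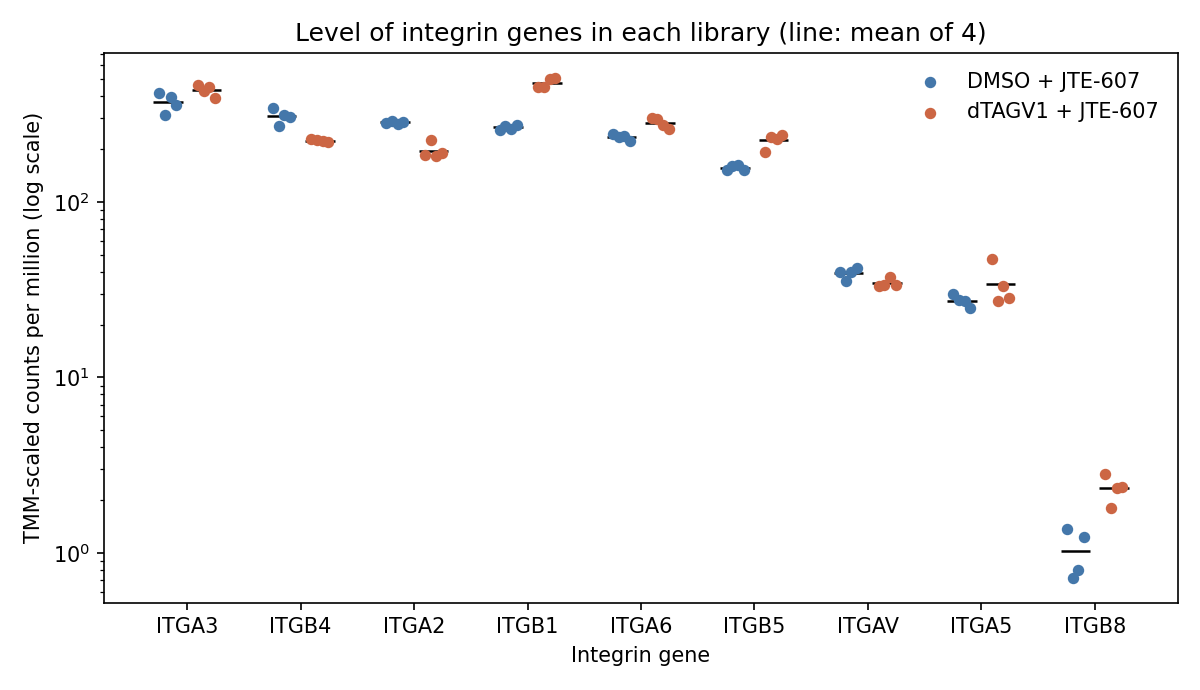
TMM-scaled CPM of 9 integrin genes in each of the 8 libraries on a log scale, with the mean of 4 libraries as a line; ITGB6, at 0 in 6 libraries, is left out. ITGB1 and ITGB5 separate upward and ITGA2 and ITGB4 downward, whereas ITGA3, ITGAV and ITGA5 overlap between groups.

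The kit gives reads from transcript ends, so levels were compared between genes without scaling to length. How well each transcript end is captured may differ between genes. Among the DMSO libraries the order of the mean CPM was ITGA3, ITGB4, ITGA2, ITGB1, ITGA6, ITGB5, ITGAV, ITGA5, ITGB8 and ITGB6. The ranges of ITGA3 and ITGB4, and of ITGB4 and ITGA2, overlapped, and the other neighbours in that order did not. With dTAGV1 the order was ITGB1, ITGA3, ITGA6, ITGB5, ITGB4, ITGA2, ITGAV, ITGA5, ITGB8 and ITGB6. Here the ranges overlapped between ITGB1 and ITGA3, ITGB5 and ITGB4, ITGB4 and ITGA2, and ITGAV and ITGA5. By mean, ITGB1 moved from the fourth place to the top of the order, and ITGB4 from the second to the fifth. Single libraries do not fix these places. With DMSO the ranges of ITGB4 (271 to 343 CPM) and ITGB1 (258 to 273 CPM) also overlapped. With dTAGV1, ITGB1 was above ITGA3 in 3 of the 4 libraries.

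The shares show the same shift within each class of subunit, as descriptions with no test. Of the counts summed over the 5 beta genes, ITGB4 held 42.0% ± 2.84 (SD, n = 4) in the DMSO libraries and 24.1% ± 1.53 in the dTAGV1 libraries. ITGB1 held 36.4% ± 1.96 and 51.5% ± 1.44, and ITGB5 21.4% ± 1.19 and 24.1% ± 1.66. The ranges of the ITGB5 share overlapped (20.2% to 22.8% with DMSO and 21.9% to 25.8% with dTAGV1). ITGB8 held 0.140% and 0.253%. ITGB4 thus had the largest mean share of the beta counts with DMSO, and ITGB1 with dTAGV1. With DMSO the ranges of ITGB4 (38.5% to 45.4%) and ITGB1 (34.2% to 38.6%) overlapped. In DMSO replicate 2 ITGB1 had 1129 counts and ITGB4 1125.

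Of the counts summed over the 5 alpha genes, ITGA2 held 29.8% ± 1.98 with DMSO and 19.9% ± 1.98 with dTAGV1. ITGA3 held 38.7% ± 2.86 and 44.3% ± 1.75, and ITGA6 24.6% ± 1.03 and 28.8% ± 0.646. ITGAV and ITGA5 held small shares, 4.11% and 2.86% with DMSO and 3.51% and 3.44% with dTAGV1. ITGA3 had the largest alpha share in both groups.

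**Figure D3:**
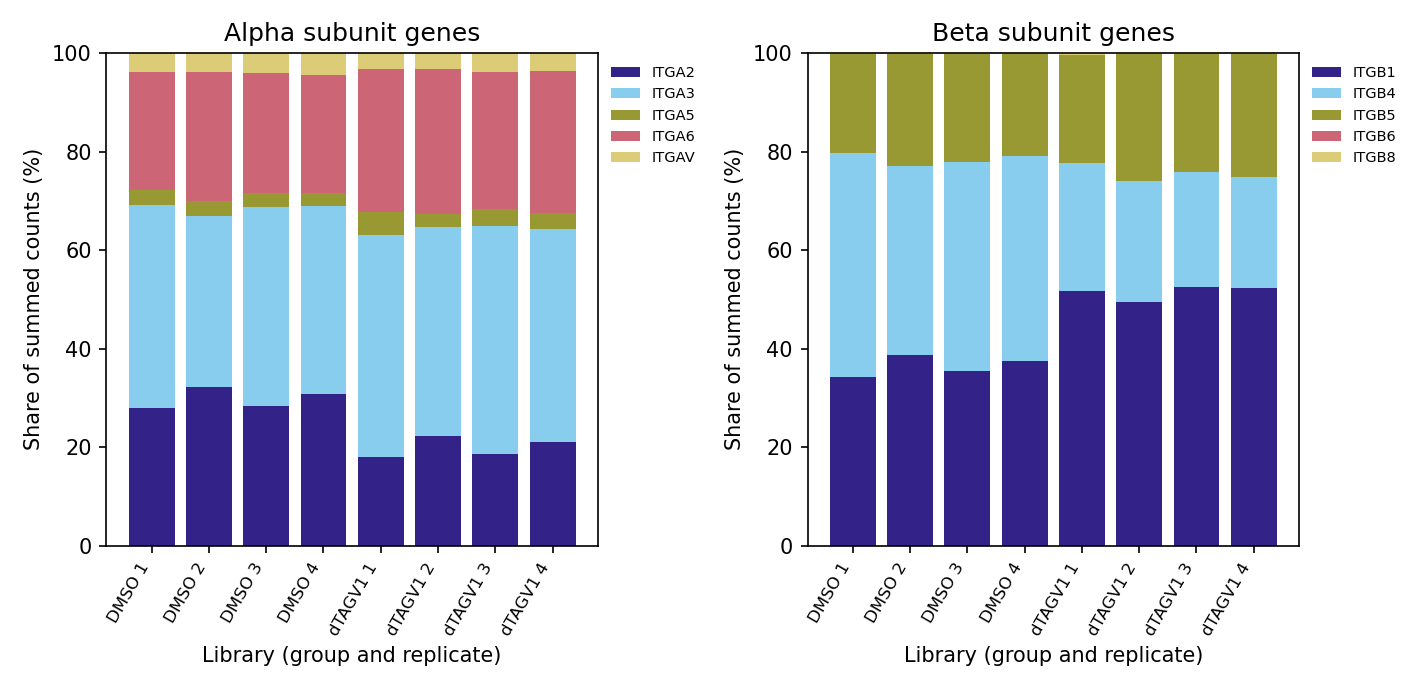
Share of the counts (%) of each alpha subunit gene (left) and each beta subunit gene (right) within the sum of its class, by library. The ITGB1 segment grows from 34.2% to 38.6% in DMSO to 49.4% to 52.5% in dTAGV1; ITGB6 and ITGB8 are too low to be seen.

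Ratios between subunits moved accordingly. Counts of ITGB1 over ITGB4 were 0.873 ± 0.105 with DMSO (0.753 to 1.004) and 2.14 ± 0.171 with dTAGV1 (1.99 to 2.32). The ratio of ITGB4 to ITGA6, the pair of the hemidesmosome, went from 1.31 ± 0.115 to 0.791 ± 0.0406. The ratio of ITGB5 to ITGAV went from 4.00 ± 0.389 to 6.53 ± 0.659, and the ranges of all 3 ratios were separate. ITGA2 over ITGA3, a collagen against a laminin receptor chain, went from 0.776 ± 0.111 to 0.451 ± 0.0619. ITGB1 over the 5 alpha genes summed went from 0.279 ± 0.0221 to 0.489 ± 0.0578.

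The 5 alpha genes summed to 957 ± 49.5 CPM in the DMSO libraries and to 984 ± 55.7 CPM in the dTAGV1 libraries, and these overlapped. The 5 beta genes summed to 731 ± 20.4 CPM (705 to 754) in the DMSO libraries and to 930 ± 41.5 CPM (880 to 972) in the dTAGV1 libraries, with no overlap. In bulk RNA, fewer cells of a kind and less RNA per cell cannot be told apart.

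The labelled cell type was checked against marker genes. Of 9 epithelial markers 8 were tested; EPCAM rose (log2 fold change 0.28), KRT18 (-0.60), KRT19 (-0.65), CLDN4 (-0.48) and ESRP1 (-1.07) fell, and CDH1 (0.02), KRT8 (-0.38) and CDX2 (-0.21) did not pass the test. VIL1, a brush border gene, had 0 to 3 counts per library. The 9 epithelial markers summed to 1848 to 2139 CPM with DMSO and 1433 to 1532 CPM with dTAGV1, and their part in the integrin results was not tested. Of 13 markers of leukocytes, endothelium and stroma, 10 had under 10 counts in every library, COL3A1 among them with 0 in all. PTPRC had at most 2 counts, PECAM1 and CDH5 at most 1. The 13 summed to 27.98 to 33.9 CPM with DMSO and 17.5 to 25.6 CPM with dTAGV1, mostly from COL1A1 and ACTA2. Neither of these 2, the only ones tested, passed edgeR's test (adjusted p = 0.0917 and 0.128) or had an unadjusted p under 0.05 (0.0579 and 0.0854), and the count of markers that changed was 1 with DESeq2 and 1 without DMSO replicate 1.

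The rest of the integrin system was described with 7 lists of 136 genes, of which 106 were tested. Over all of them 37 rose, 31 fell and 38 did not pass the test, to be read, like the counts of each list below, beside the 29.4% that rose and the 28.5% that fell of all tested genes. Their median log2 fold change was 0.01, the same as over all tested genes. The lists were written with earlier results of these data known, so their counts are descriptions.

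Ligands in the matrix had 9 genes that rose and 5 that fell of 19 tested (31 listed), with a median of 0.22. LAMC1, the gamma chain of most laminins, rose from 193 ± 15.6 to 447 ± 16.8 CPM (log2 fold change 1.21, edgeR adjusted p = 6.84e-13). LAMB3, a beta chain of an epithelial laminin that ITGA3 and ITGA6 receptors bind, rose from 36.6 ± 4.29 to 79.2 ± 6.27 CPM (1.11). LAMA5, another basement membrane laminin chain, fell from 62.5 ± 7.19 to 48.6 ± 6.17 CPM (-0.35). LTBP3 (-0.52) and LTBP4 (-0.42), which store latent TGF-beta in the matrix, also fell. The laminin chains named here did therefore not all go one way.

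Adaptors and activators link integrin tails to actin. Of 27 tested (30 listed) 7 rose and 12 fell, with a median of -0.16. FERMT1, the kindlin of epithelial cells that binds beta tails together with talin, fell from 235 ± 12.9 to 98.4 ± 12.8 CPM (log2 fold change -1.26, edgeR adjusted p = 6.46e-12). TNS4, a tensin that binds beta tails, fell from 24.7 ± 1.68 to 4.00 ± 1.18 CPM (-2.60), and PARVB, a parvin of the complex with ILK, from 17.7 ± 2.39 to 3.04 ± 0.658 CPM (-2.53). TES, a LIM protein of focal adhesions, rose from 324 ± 18.6 to 601 ± 39.9 CPM (0.89). RAP1B, a small GTPase that recruits talin (0.45), and TLN2, a talin (0.38), rose as well.

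Among 18 tested kinases and signal carriers (22 listed) 4 rose, 2 fell and 12 did not pass the test, with a median of 0.13. The number that changed was 6, and 3 without DMSO replicate 2. PTK2, the focal adhesion kinase, rose from 119 ± 9.04 to 148 ± 6.65 CPM (0.31), and PAK2, an effector kinase of RAC1 and CDC42, rose by a log2 fold change of 0.26. Its relative PAK1 fell, with a log2 fold change of -0.44.

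The next list was named for inhibitors of integrin activation, but the roles given below differ, and not all its genes are such inhibitors. It had 1 gene that rose and 3 that fell of 7 tested, with a median of -0.25, which does not show that inhibitors fell as a class. PTPN12, a phosphatase that acts on focal adhesion proteins, fell from 148 ± 1.77 to 72.9 ± 6.37 CPM (log2 fold change -1.02, edgeR adjusted p = 1.15e-10). PTPN11 (-0.52), a phosphatase of receptor signalling, and DOK1 (-0.57), which competes with talin for beta tails, fell too. KRIT1, the gene that rose (0.31), is known to draw the inhibitor ITGB1BP1 away from the ITGB1 tail, so it does not act as an inhibitor itself. ITGB1BP1 was at 47.7 ± 2.90 and 48.0 ± 4.98 CPM (0.01, edgeR adjusted p = 0.945).

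Hemidesmosome and tetraspanin partners had 6 genes that rose and 1 that fell of 11 tested, with a median of 0.39. DST, a plakin that joins hemidesmosomes to keratin, rose from 891 ± 93.3 to 1510 ± 64.7 CPM (0.76), and COL17A1, the transmembrane collagen of hemidesmosomes, from 14.2 ± 4.14 to 30.7 ± 1.46 CPM (1.10). BSG, the membrane protein basigin, rose by 0.66. PLEC, the plectin that ITGB4 binds, had a log2 fold change of -0.30 (edgeR adjusted p = 0.11), and CD151, the tetraspanin of the laminin receptors, 0.01 (edgeR adjusted p = 0.909). CD9, another tetraspanin, fell (-0.38). Of the structural partners of ITGB4, DST and COL17A1 thus did not share its direction, and PLEC had a negative estimate that did not pass the test. Which transcripts of DST were counted is not known here.

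Genes of processing and trafficking had 8 that rose and 6 that fell of 19 tested, with a median of 0.08. RAB21, an endosomal GTPase that binds alpha tails, rose from 110 ± 4.42 to 238 ± 23.7 CPM (1.11). The clathrin adaptor DAB2 (0.78) and the chaperone of the endoplasmic reticulum HSPA5 (0.70) rose too. RAB25, an epithelial GTPase of recycling endosomes, fell from 58.4 ± 3.24 to 27.0 ± 3.30 CPM (-1.12), and so did SNX27 (-0.89) and ARF6 (-0.55), which return receptors to the surface. Of the 16 other integrin subunits only 5 were tested, and 2 rose and 2 fell, with a median of -0.09; 11 had too few counts. ITGAE, the alpha subunit known from mucosal lymphocytes, went from 28.5 ± 4.23 to 37.8 ± 0.951 CPM (0.40, edgeR adjusted p = 0.0064).

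**Figure D4:**
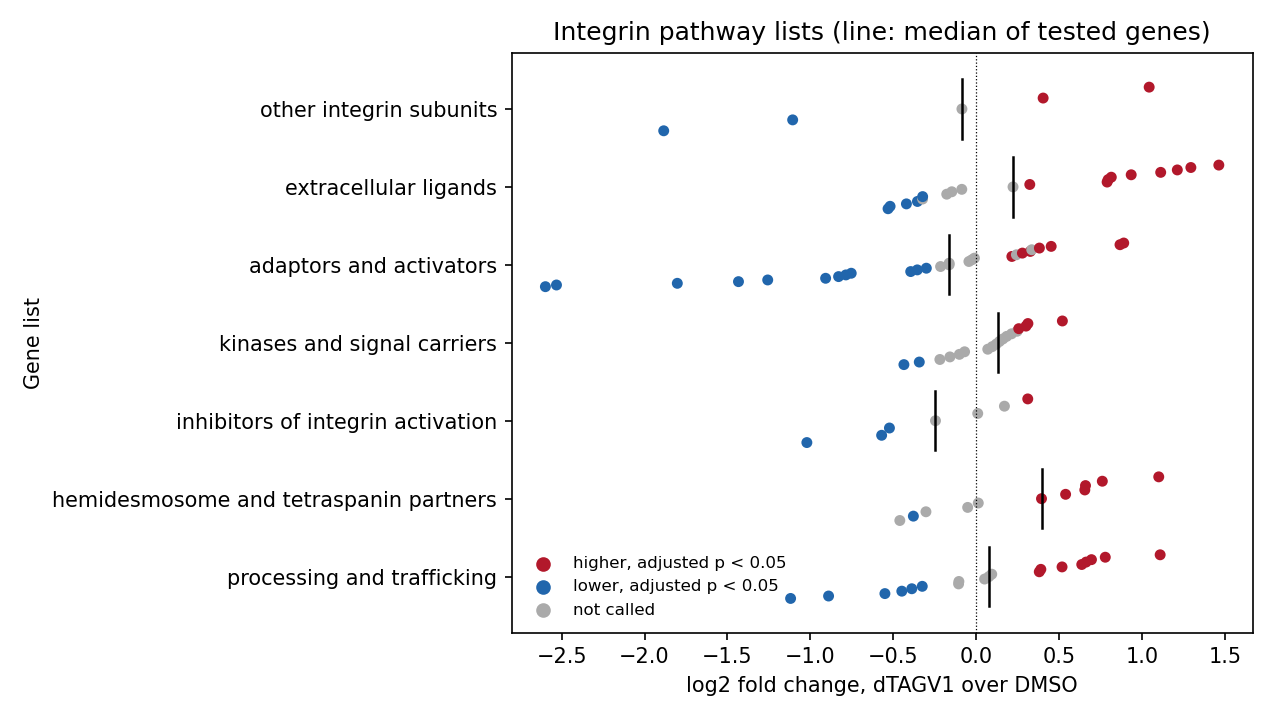
Log2 fold change, dTAGV1 over DMSO, of each tested gene of the 7 integrin pathway lists (points, coloured by call), with the median of each list as a line. The list of hemidesmosome and tetraspanin partners has the highest median at 0.39. The list named inhibitors, not all of which inhibit activation, has the lowest at -0.25. Every list holds genes on both sides of 0.

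The genes whose levels followed ITGB1 most closely over the 8 libraries, among 9247 named genes whose mean reached 10 CPM, were MT-ND3, CLU and NOP53, with Pearson's r of log2 CPM of 0.999, 0.998 and 0.997. Those closest to ITGA2 were ARVCF, SERBP1 and PSME3, with 0.997, 0.996 and 0.995. These values describe 8 libraries in 2 groups, share library size, and carry no p, since any gene that separates the groups strongly scores high.

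In the RefSeq table of promoters (GRCh38.p14, 250 bases before to 50 after the start), 8 of the 10 integrin genes were found, all but ITGA3 and ITGB4. For genes with several starts, the window that held most GENCODE starts was used. GGGCGG on either strand, the letters of the SP1 box, was in 6 of the 8 windows, and in 45.0% of 35116 promoters. TGANTCA, the AP-1 letters, was in 1 of 8 and in 7.71% of promoters, and GGAATG, the TEAD letters on either strand, in 2 of 8 and 14.0%. A match is a description of the letters, not a site.

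Reads lay on the strand of the integrin genes. For the tested genes with any count on the opposite strand, the counts on their own strand exceeded it by between 196 times (ITGA2) and 12031 times (ITGA3), and ITGB4 had none. Genes that overlap the exons of ITGA5, ITGA6, ITGAV, ITGB1 and ITGB8 in GENCODE 29 lie on the opposite strand, and ITGB6 shares exons with AC092153.1 on its own strand.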

How the data were processed

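RNA of 8 libraries, 4 per group, was sequenced from 3′ ends (Lexogen QuantSeq FWD V2 kit, per the labels' protocols). The deposited values are whole-number counts per gene in the layout of STAR's gene table. FastQC, fastp, STAR, HTSeq, DESeq2 and GRCh38 are named in the submitters' processing notes, with no version or role. The annotation, and whether PCR copies were removed, are not given in the sources used here. Counts on the strand of the gene were used as deposited. Reads given to no gene (56.7% to 62.8% of a library) stayed out of library sizes.

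Libraries were grouped by treatment label. Genes passed filterByExpr at its defaults. edgeR 4.0.16 in R 4.3.3 fitted the quasi-likelihood model (robust, TMM) over 12618 genes, with an adjusted p threshold of 0.05. Only the edgeR fit was tried on simulated counts. Far fewer genes changed there than here, so that trial does not cover TMM scaling in these data. Same-numbered libraries did not deviate together (correlations 0.131, -0.0176, 0.0232 and 0.0340), so no block was used. Libraries of a group differed by more than sampling noise. Coordinates are those of GENCODE 29, counted from 1.

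The integrin genes and lists were chosen with earlier results of these data known. Named genes are all 10 integrin genes, NUDT21, and from each list up to 3 genes per direction with the largest change among those that changed, with a mean of at least 10 CPM and no overlap between groups. ITGB1BP1, PLEC and CD151 were named for their role after their values were seen, and all epithelial markers are named. Alternatives were DESeq2 1.42.0, limma 3.58.1 (voom), other scaling and filters, strand-blind counts, a replicate block, non-robust dispersions and leaving out each library. One gene that the rule for named genes picks is not reported here. Protein sequences were not used here.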

Additional observations from a re-analysis of the deposited data

Results flagged for a closer look

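Each group of 4 libraries was screened with Dixon's ratio, the gap between an extreme library and its nearest neighbour over the range of the group, for the integrin genes and the genes named with them that reached 10 counts in a library, and for shares and ratios whose numerator reached 20. ITGB6, with 1 count in 1 library of each group, was below that and was not screened. Of 124 groups 5 passed its 95% critical value, and chance alone flags about 1 group in 20. ITGAV was highest in dTAGV1 replicate 3, at 37.4 CPM against 33.2 to 33.8 CPM in the other 3 (ratio 0.845). LTBP3 was lowest in DMSO replicate 4, at 94.7 CPM against 111.8 to 114.7 CPM (0.852). TNS4 was highest in DMSO replicate 2, at 27.3 CPM against 23.7 to 24.2 CPM (0.861). ESRP1 was highest in dTAGV1 replicate 4, at 64.8 CPM against 50.1 to 51.1 CPM (0.934). SERBP1 was highest in dTAGV1 replicate 2, at 805.6 CPM against 661.5 to 683.7 CPM (0.846).

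A further signal lay in a column that the comparisons above do not use, and it was chosen after seeing the data. ITGA6-AS1 (ENSG00000232788, chr2:172464262-172466022, minus strand) lies inside ITGA6, 36908 bases from its start. Reads on the strand of ITGA6 over the exons of ITGA6-AS1 rose from 23.1 ± 1.53 to 43.2 ± 7.58 CPM (SD, n = 4), a ratio of 1.87 (two-sided exact permutation p = 0.0286, the smallest that 4 against 4 can give, and 0.0571 adjusted over the 2 such loci of ITGA6). All 4 dTAGV1 libraries were above the DMSO libraries. Most of these reads lie where ITGA6 and ITGA6-AS1 share exon, so they are largely also counts of ITGA6. ITGA6-AS1 had only 1 to 8 counts per library on its own strand. At the other locus, ENSG00000226963, 420 bases from the start of ITGA6, the ratio was 0.997 (exact permutation p = 1).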

How the results depend on the processing

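Each of 23 results was recomputed under 17 alternatives; of 391 values 373 kept their direction and side of the threshold (or a count within 1.5 times) and 0 reversed. ITGB1 (0.77 to 0.86), ITGB5 (0.45 to 0.58), ITGA6 (0.18 to 0.29), ITGA2 (-0.62 to -0.52) and ITGB4 (-0.53 to -0.41) passed the test under all 17; the calls of ITGA3, ITGA5 and ITGAV that differed stand in the text. With genes of a mean of at least 100 counts only, which leaves fewer genes to test, 4120 genes changed and 2131 rose, beside 7302 and 3710, and the lists had 1 (other integrin subunits), 12 (adaptors and activators) and 2 (inhibitors) changed. Without any filter 8073 of 29925 genes changed, and with DESeq2 7065 of 18321. Leaving out 1 library at a time gave 3 to 7 kinases and signal carriers changed and 0 to 1 markers of other cell types; the latter were 1 with DESeq2, 1 with library totals and 1 without a filter, and the cause was not tested. The integrin genes that changed were 5 to 7 over those omissions, 3 to 5 of them higher and 2 lower. Library totals in place of TMM moved the median of all genes by -0.07. A replicate block gave 7434 genes changed, and 6 integrin genes; the numbers do not pair the libraries. ITGB6 and ITGB8 had too few counts at this depth to be tested. Counting intervals would cover counting error only.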

Other observations

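ITGA6 shares 125 bases of exon (chr2:172465539-172465663) with ITGA6-AS1 on the opposite strand, and other antisense genes also overlap its exons. In STAR's layout, reads that fit 2 genes are given to neither when strand is ignored. The count of ITGA6 irrespective of strand was lower than the count on its own strand by 6.94% ± 0.529 with DMSO (6.17% to 7.34%, or 55 to 69 counts per library) and by 10.7% ± 0.287 with dTAGV1 (10.4% to 11.1%, or 97 to 123 counts). The difference between groups was 3.79 percentage points (two-sided exact permutation p = 0.0286, the smallest possible with 4 against 4), and the groups did not overlap. It was examined for ITGA6 alone after the data were seen, and its p is not adjusted. For ITGA6-AS1, the counts of both strands added together were compared with its count irrespective of strand. The sum was higher by 64 to 78 counts with DMSO and by 103 to 132 with dTAGV1. For ITGA6, from its own strand alone, the numbers were the 55 to 69 and 97 to 123 given above. These are nearly the same numbers library by library, so this difference and the higher reads over ITGA6-AS1 given above rest largely on the same reads and are not 2 separate results.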
